A study of Mus musculus with 6 samples.

Results

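The set described here is 8 long noncoding RNAs of mouse embryonic stem cells (mESCs): the nuclear RNAs Malat1, Neat1 and Miat, the small nucleolar RNA (snoRNA) host RNAs Gas5, Snhg1, Snhg3 and Snhg12, and Tug1. They were listed by name, by a rule that uses no measured value although earlier results of these data were known, and all 8 were found among the 23412 genes of the expression table. RNA-seq had been carried out on undifferentiated cells of 2 lines, R1 and HN, with 3 libraries per line and 6 in all. R1 is the parental wild type line of strain 129Sv, and HN is Htt-null, with the promoter and exon 1 of Htt deleted. Both were grown without feeder cells on gelatin with LIF and 3 kinase inhibitors, and each genotype was a single cell line. The deletion therefore cannot be told apart from any other difference between the lines. Each line was collected on 3 dates, and libraries with the same replicate number shared a date.

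Long noncoding RNAs are transcribed and processed much like messenger RNAs but are not translated into a stable protein. Malat1 is retained in nuclear speckles, where splicing factors concentrate, Neat1 forms the scaffold of paraspeckles, and Miat (also called Gomafu) is a nuclear RNA with repeats that bind splicing regulators. Gas5 and the Snhg RNAs carry snoRNAs in their introns. The snoRNAs guide the modification or processing of ribosomal RNA, while the spliced host RNA leaves the nucleus and is, for Gas5 and Snhg1, degraded by nonsense-mediated decay when it is translated. Tug1 is a widely expressed RNA first described in the developing retina.

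Sequences known from these genes are shown here and do not divide the groups cleanly. Promoter windows of 70 bases, reaching from 40 bases before the annotated start to 30 bases of the transcript, were taken from RefSeq (GRCm38.p6), in which 7 of the 8 genes matched and Neat1 did not. Capitals mark TATA found 16 to 40 bases before the start, and a run of at least 5 pyrimidines (C or T). Such a run had to lie at least in part within 3 bases of the start, and could begin further upstream. A pyrimidine tract at the first base is the mark of the genes whose translation follows cell growth, to which many snoRNA hosts belong. The windows of the 4 host RNAs are shown with that of Malat1 for contrast, each on the transcribed strand, which was the strand searched.
Gas5, chr1:161035126-161035195, plus strand: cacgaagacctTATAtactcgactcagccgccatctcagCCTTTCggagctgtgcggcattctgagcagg
Snhg1, chr19:8723447-8723516, plus strand: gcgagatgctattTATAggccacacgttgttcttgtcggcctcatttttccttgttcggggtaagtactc
Snhg3, chr4:132353657-132353726, minus strand: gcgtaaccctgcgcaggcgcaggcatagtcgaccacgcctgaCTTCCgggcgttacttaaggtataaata
Snhg12, chr4:132308638-132308707, plus strand: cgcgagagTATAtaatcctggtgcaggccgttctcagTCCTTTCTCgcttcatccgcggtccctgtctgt
Malat1, chr19:5802643-5802712, minus strand: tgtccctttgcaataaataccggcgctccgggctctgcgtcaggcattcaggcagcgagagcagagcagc

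The downstream of the 2 RefSeq starts of Gas5 had a run of 6 pyrimidines, Snhg12 one of 9 and Snhg3 one of 5, and Miat, whose window is not shown, one of 7. TATA was present in the windows of Gas5, Snhg1 and Snhg12. Among 32851 mouse promoters, 26.1% had such a run, 5.91% had TATA in that place and 1.57% had both, as Gas5 and Snhg12 did. The other Gas5 start, Malat1 and Tug1 had neither.

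Features of some of the mature RNAs are shown as well. The Malat1 transcript of 6983 bases carries an encoded run of 12 A near its 3′ end, where the RNA is cut to give an end stabilised by a triple helix in place of a poly(A) tail. Snhg12 has a run of 12 A too, at base 460, and the other 6 members have none of 10 or more. A run of at least 10 A was found in 11.4% of 68537 annotated transcripts of 1000 bases or more. Miat holds 6 copies of TACTAAC, a splicing branch-point sequence, or 0.655 per kb against 0.0228 per kb over all these transcripts. The stretch shown holds 3 copies, the most found in a short stretch. Snord47, a snoRNA inside Gas5, shows the product such a host carries, with its C box (TGATGA) and D box (CTGA) in capitals.
Malat1, bases 6654 to 6705: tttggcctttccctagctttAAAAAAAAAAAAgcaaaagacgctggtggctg
Miat, bases 4941 to 5072: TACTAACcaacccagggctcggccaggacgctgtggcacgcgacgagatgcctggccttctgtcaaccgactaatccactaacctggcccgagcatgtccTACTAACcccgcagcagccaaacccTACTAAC
Snord47, 77 bases: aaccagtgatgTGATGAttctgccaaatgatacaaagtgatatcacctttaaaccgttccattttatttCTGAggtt

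The values are normalized counts, that is, reads on the exons of a gene divided by a size factor for each library. The libraries held 1640391 to 3866717 counted reads, so that 3 reads correspond to a normalized count of 2.13 to 4.04. Htt served as the check of the labels, at 229, 257 and 199 in R1 against 18.3, 58.1 and 54.2 in HN, and its log2 fold change of -2.52 passed the test (limma, adjusted p = 0.0141), though not without R1 replicate 1 (adjusted p = 0.122). All of the 8 pluripotency markers examined were expressed, with Pou5f1 at 2967 ± 807 (SD, n = 3) in R1 and 2979 ± 862 in HN. In bulk RNA, fewer cells with a transcript and less transcript per cell cannot be told apart.

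Malat1 was the most abundant member, at rank 18 of all genes by mean normalized count, with 0.143% to 0.288% of all counted reads. Per kb of annotated exon, and leaving out retained-intron transcripts, Gas5 came first. Its level per kb was 1030 ± 189 (SD, n = 3) in R1 and 1401 ± 124 in HN, and was above that of Malat1 in 6 of 6 libraries, although their ranges over the libraries overlapped. Malat1 stood at 603 ± 132 per kb in R1 and 880 ± 146 in HN. Snhg1 followed with 369 ± 100 and 371 ± 75.6 per kb, and Snhg3 with 178 ± 50.5 and 169 ± 39.2. Tug1, at 56.7 ± 11.3 and 66.4 ± 14.5 per kb, and Snhg12, at 53.5 ± 8.94 and 55.6 ± 11.4, were neighbours that did not differ beyond their spread. Neat1 (2.25 ± 0.939 and 2.41 ± 1.08 per kb) and Miat (1.45 ± 0.811 and 1.85 ± 0.645) were the lowest, and their ranges overlapped too. The level of Neat1 per kb depends on its length, taken as 20.8 kb of annotated exon. Which part of that length the reads came from was not examined. The order of the hosts depends on which exons are counted as the length, since with retained introns included Gas5 fell to a mean of 275 and Snhg1 to 108 per kb. Neat1 and Miat are thus members by name and not by level, with 48.4 and 15.3 normalized counts on average, and Miat was close to the median of all genes in the table (percentile 52.9).

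**Figure D1:**
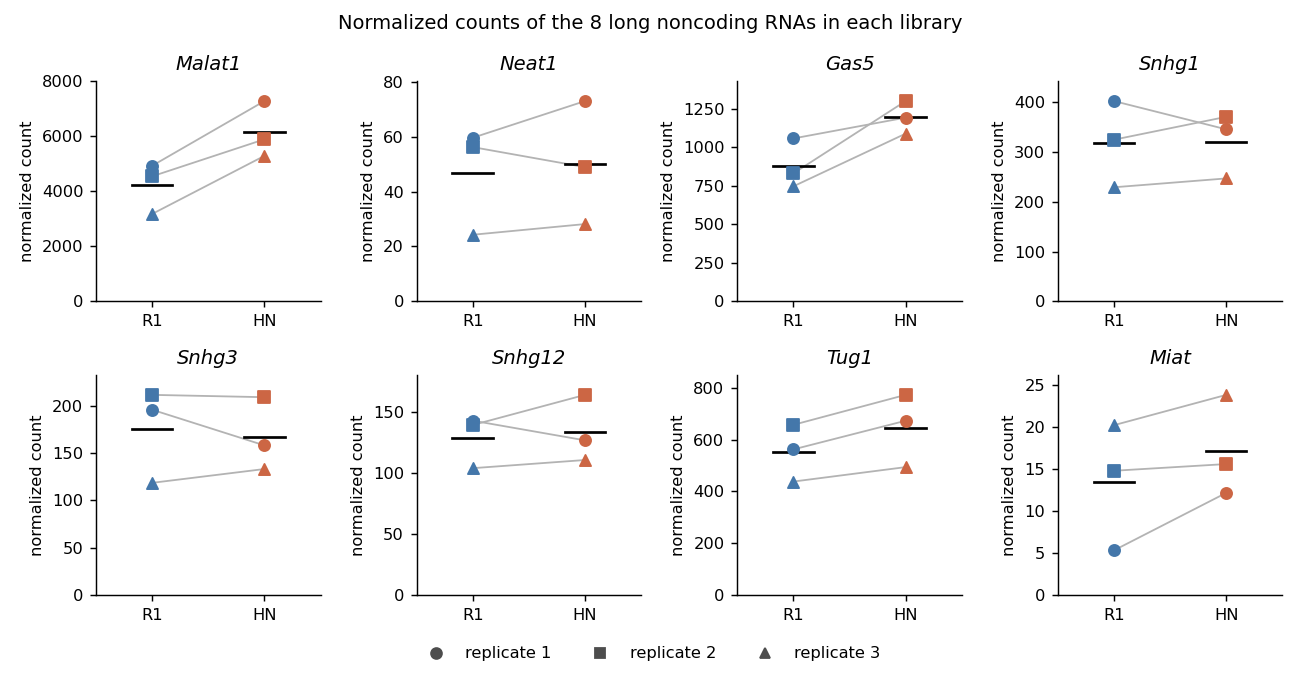
Normalized count of each RNA (y axis, from 0, its own scale in each panel) in the R1 and HN libraries (x axis). Points are libraries, with a marker for each replicate date, grey lines join libraries of the same date and black bars are the means of 3 libraries; for Malat1 and Gas5 all HN points lie above all R1 points, and for all RNAs but Miat the date of replicate 3 (triangles) is lowest in both lines.

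The comparison of HN with R1 asked which genes differ in mESCs without Htt. Malat1 and Gas5 were higher in HN than in R1 in every library, by 1.47-fold and 1.37-fold. The other 6 RNAs overlapped between the lines, with Tug1 1.17-fold and Miat 1.37-fold higher in the mean of HN, and Neat1, Snhg1, Snhg3 and Snhg12 within 0.10 of zero on the log2 scale. None of the 8 passed the test when all libraries of a line were treated as unpaired (limma, adjusted p under 0.05), where 0.119% of the 14276 tested genes were called higher and 0.126% lower. Malat1 and Gas5 were the 2 of 8 with an unadjusted p under 0.05, against 5.91% of tested genes, and edgeR and DESeq2 on the recovered reads also called 0 of 8. With the collection date as a block, 2 of the 8 rose in HN (Malat1 and Gas5) and 0 fell, against 5.46% of tested genes called higher and 4.02% lower. No difference among the 8 reached a log2 fold change of 1, which 0.245% of tested genes exceeded together with an adjusted p under 0.05 without the block. The median log2 fold change was 0.16 over the 8 and -0.01 over all tested genes.

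Malat1 was at 4921, 4539 and 3171 normalized counts in the R1 libraries of replicates 1, 2 and 3 and at 7273, 5885 and 5283 in HN. The lowest HN library was thus above the highest R1 library, as in 5.23% of tested genes. The means were 4211 ± 920 (SD, n = 3) and 6147 ± 1021, and the log2 fold change of 0.56 (SE 0.23) had a limma adjusted p of 0.755. Within the same date, HN exceeded R1 by 0.56, 0.37 and 0.74 on the log2 scale in the 3 pairs. With the date as a block the 95% interval narrowed to 0.38 to 0.74 and the adjusted p was 2.43e-05. The variance behind both was estimated partly from the other genes, and not from these pairs alone. The blocked call held without any 1 date, at log2 fold changes between 0.47 and 0.65. Line accounted for 58.0% and date for 37.9% of the variation of Malat1 over the 6 libraries.

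Gas5, the growth-arrest-specific host RNA, stood at 1056, 829 and 745 normalized counts in R1 and 1191, 1299 and 1087 in HN. All HN libraries again lay above all R1 libraries, with means of 877 ± 161 (SD, n = 3) and 1192 ± 106. The log2 fold change was 0.45 (SE 0.19; limma, adjusted p = 0.774 without and 0.00117 with the block). The same-date differences were uneven, at 0.17, 0.65 and 0.54 on the log2 scale, smallest for replicate 1. Without the libraries of replicate 2 the blocked difference was 0.36 and no longer passed (limma, adjusted p = 0.203). The call for Gas5 thus did not hold without that date. All genes called with the block also fell there, from 1354 to 494, so that fit was weaker for other genes too. Line accounted for 65.3% of its variation, the largest share among the 8.

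Tug1 was the steadiest member within dates. Its normalized counts were 562, 657 and 438 in R1 and 673, 773 and 494 in HN, so that the lines overlapped while HN was higher on each date. The same-date differences were 0.26, 0.23 and 0.17 on the log2 scale, and only 0.42% of the variation of Tug1 was left after line and date. The log2 fold change of 0.22 (SE 0.22) did not pass, with limma adjusted p-values of 1 without and 0.152 with the block. Its blocked 95% interval ran from 0.03 to 0.41. HN was higher in all 3 pairs for 4 of the 8 RNAs, Malat1, Gas5, Tug1 and Miat, and lower in all 3 for 0, where 20.3% and 21.2% of tested genes were so.

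The 3 Snhg hosts did not move between the lines by more than their spread. Snhg1 was at 402, 325 and 229 normalized counts in R1 and 346, 371 and 247 in HN, with a log2 fold change of 0.03 (SE 0.24) whose sign turned to -0.01 under quantile normalization or library-size scaling. Snhg3, at 196, 212 and 119 in R1 and 158, 209 and 133 in HN, had a log2 fold change of -0.05 (SE 0.26). Snhg12, at 143, 139 and 104 in R1 and 127, 164 and 110 in HN, had one of 0.05 (SE 0.23). For all 3, HN was the lower line for replicate 1 and the higher for replicate 3. Their blocked 95% intervals were -0.20 to 0.25 for Snhg1, -0.32 to 0.21 for Snhg3 and -0.23 to 0.33 for Snhg12, so differences within these bounds could not be told from none.

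Set against the other 3 hosts in the same library, Gas5 was higher in HN. The log2 ratio of Gas5 to the mean of Snhg1, Snhg3 and Snhg12 was 2.23, 1.96 and 2.39 in R1 and 2.64, 2.47 and 2.81 in HN. The lines did not overlap, and the difference of 0.45 had an exact permutation p of 0.1 (two-sided), the smallest that 3 against 3 libraries allow. Such a ratio is nearly independent of the size factors. The ratio of Malat1 to Neat1 overlapped between the lines (difference 0.46 on the log2 scale, exact permutation p = 0.3), as did that of Malat1 to Gas5 (0.10, p = 0.6 by the same permutation test).

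Neat1 and Miat were measured with few reads. Neat1 was at 59.6, 56.2 and 24.3 normalized counts in R1 and 73.0, 48.9 and 28.2 in HN, from 18 to 76 reads per library, and its log2 fold change of 0.10 (SE 0.41) had a blocked 95% interval from -0.32 to 0.52. Miat was at 5.32, 14.8 and 20.2 in R1 and 12.2, 15.6 and 23.8 in HN, from 5 to 22 reads. Its lowest library, the R1 library of replicate 1, had 5 reads, with a 95% Poisson interval of 1.62 to 11.7 that covers counting error only. The difference for Miat was 0.45 (SE 0.53; limma, adjusted p = 0.522 with the block) and was -0.06 without that library. At this depth, a difference of up to 1.18 on the log2 scale, the upper end of the blocked interval, could not be told from none.

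**Figure D2:**
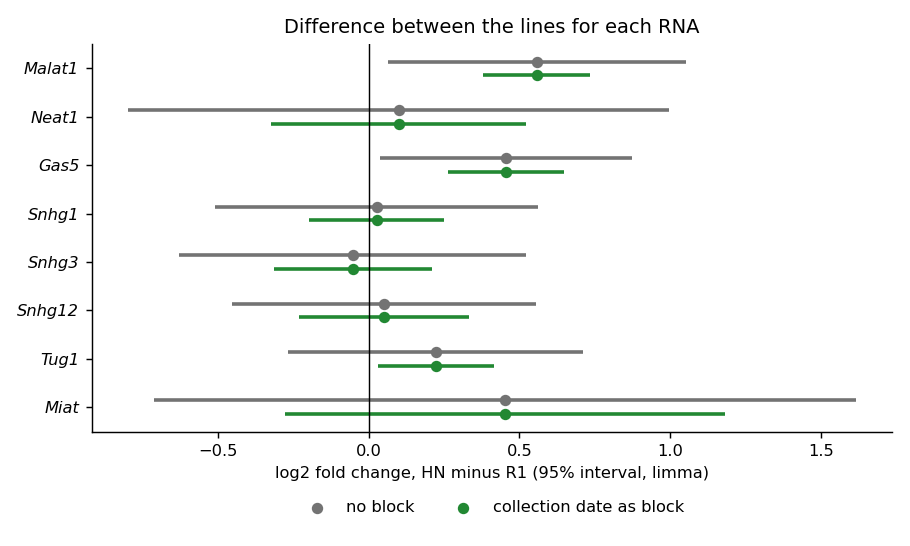
Log2 fold change of HN over R1 (x axis) for each RNA (y axis), as points with 95% intervals from limma without a block (grey) and with the collection date as a block (green), n = 3 libraries per line. With the block the Malat1 interval runs from 0.38 to 0.74 and those of Neat1, Snhg1, Snhg3, Snhg12 and Miat include 0.

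Date moved most of the set. With line in the model, 7 of the 8 RNAs differed between the 3 dates (limma, adjusted p under 0.05), but so did 46% of all tested genes. The exception was Gas5, with an adjusted p of 0.0648. Date accounted for 95.7% of the variation of Neat1, 91.0% of Snhg1, 90.2% of Snhg3, 84.4% of Snhg12, 83.7% of Tug1 and 75.4% of Miat, against a median of 68.3% over all tested genes. The adjusted p of the date was lowest for Tug1 (3.09e-04) and Neat1 (3.50e-04) and highest among those that passed for Snhg12 (0.0465).

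The direction was shared. In both lines the libraries of replicate 3 were the lowest of the 3 dates for 7 of the 8 RNAs, as for 29.5% of tested genes, and Miat was the highest there, as for 25.6%. Relative to the mean of the other dates, replicate 3 was lower by 0.44 on the log2 scale for Malat1, 1.14 for Neat1, 0.26 for Gas5, 0.59 for Snhg1, 0.61 for Snhg3, 0.41 for Snhg12 and 0.51 for Tug1. Miat was higher by 0.92 on that date.

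**Figure D3:**
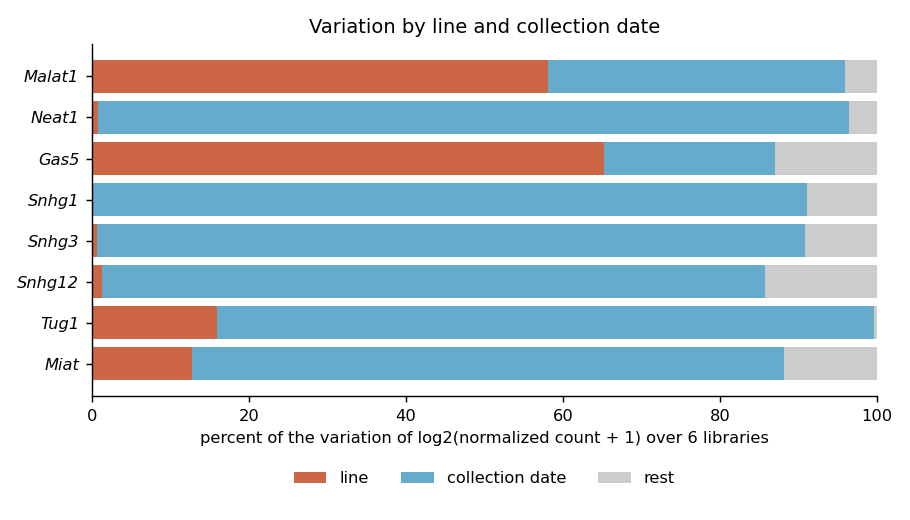
Percent of the variation of log2(normalized count + 1) over the 6 libraries (x axis, 0 to 100) for each RNA (y axis), split into line, collection date and the rest. Line takes 58.0% for Malat1 and 65.3% for Gas5 and under 16% for the other RNAs, in which date takes 75.4% or more.

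Part of that difference moved with the scaling. The libraries of replicate 3 had normalized totals of 2211000 and 2352300 against 2529000 to 2740800 for the others, and reads on more genes, 20542 and 20675 against 18133 to 19083. Over all tested genes the median difference of replicate 3 was -0.07 with the authors' size factors, 0.06 after median centring, -0.01 after quantile normalization and 0.13 with library-size scaling. The median over the 8 RNAs was -0.48, -0.34, -0.21 and -0.27 under the same scalings. The number of the 8 that were lowest on that date in both lines was 6 after median centring (19.6% of tested genes), 5 after quantile normalization (23.4%) and 5 with library-size scaling (16.2%). Snhg1, Snhg3, Snhg12, Tug1 and Neat1 were among them in each case, while Gas5 came to -0.01 after quantile normalization. Under quantile normalization only Neat1 and Snhg1 still passed the test of the date (limma, adjusted p = 0.00153 and 0.0223).

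Markers of some other cell types were higher on the same date. The summed normalized counts of 5 primitive endoderm markers were 144 and 121 in the libraries of replicate 3 against 29.8 to 54.8 in the others. Those of 4 trophoblast markers were 60.7 and 54.2 against 6.39 to 31.9, and those of 5 fibroblast markers 98.4 and 65.0 against 11.3 to 52.2. Elf5, a defining trophoblast gene, was under the filter on low values. The sums of 5 neural markers (283 and 258 against 167 to 315) and 4 mesoderm markers (79.5 and 129 against 77.7 to 245) lay within the range of the other dates. The sums of 8 pluripotency markers were lowest there, at 12129 and 12845 against 15742 to 17914. Whether such cells were present, and what part they had in the values of the 8 RNAs, was not tested.

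**Figure D4:**
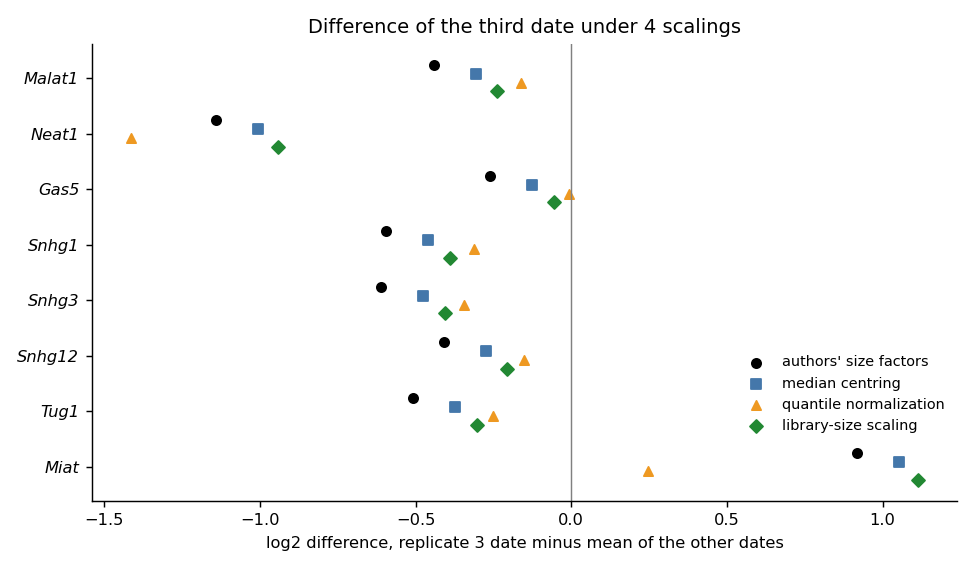
Log2 difference of the replicate 3 date from the mean of the other dates (x axis, lines averaged) for each RNA (y axis) under 4 scalings of the libraries, 1 marker per scaling. Neat1 lies at -0.94 or lower and Miat at 0.25 or higher under each of the 4, while Malat1 lies between -0.44 and -0.16.

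The members also resembled particular genes over the 6 libraries, which share depth and date effects, so the likeness is a description. Among 7642 other genes with a mean of at least 50 (7643 for Neat1 and Miat), the closest to Tug1 were Ints3 and Qk (Pearson r of 0.996 for Qk), to Snhg3 Nop9 (0.998) and Nfat5 (0.997) and to Snhg1 Trp53i11 (0.996) and Tbc1d17 (0.995). Malat1 was closest to Ghitm and Pdpk1, Gas5 to Yipf3 and Nek8, Neat1 to Mocs2 and Sri, Snhg12 to Cox16 and Mthfd1 and Miat to Usp40 and Tpp2, with r of at least 0.98 in each.

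Genes next to the members were examined because reads of overlapping genes can be split or lost in counting, and the strand setting of the counting is not given in the sources used here. Positions are of GRCm38 with GENCODE M21. Gas5 lies at chr1:161034422-161038539 on the plus strand. Zbtb37, which overlaps the Gas5 gene but not its exons on the opposite strand, differed by 0.42 and did not pass.

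Snhg1 (chr19:8723475-8726443, plus strand) neighbours Slc3a2, an amino acid transporter subunit, on the opposite strand. Slc3a2 was lower in every HN library, at 245, 234 and 235 against 347, 320 and 247, as 5.54% of tested genes were, and did not pass (log2 fold change -0.34; limma, adjusted p = 0.0556 with the block). Snhg12 (chr4:132308623-132311024, plus strand) has Trnau1ap, a factor of selenocysteine tRNA, in the same arrangement. Trnau1ap stood at 108, 107 and 104 in R1 and 60.8, 94.3 and 76.9 in HN, with no overlap and a log2 fold change of -0.47 (limma, adjusted p = 0.0577 with the block).

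Snhg3 (chr4:132348014-132353686, minus strand) shares 135 bases of exon with Rcc1, a chromatin-bound nucleotide exchange factor on the same strand. Genes of the table overlap 13.7% of the exon bases of Snhg3 and 19.6% of those of Snhg12. Annotated genes in or out of the table overlap 86.3% of those of Snhg3. The share of reads gained or lost there is not known, so the values of both are uncertain. Rcc1 had a log2 fold change of -0.12 and, like Snhg3, differed by date (limma, adjusted p = 1.94e-04). Phactr4, within 5 kb of Snhg3, differed by 0.19 and did not pass. Tug1 (chr11:3639785-3649673, minus strand) overlaps Morc2a by 483 bases on the opposite strand. Morc2a differed by 0.21 on the log2 scale and Tug1 by 0.22, and neither passed. Malat1 (chr19:5795690-5802672) and Neat1 (chr19:5824708-5845478) lie on the minus strand of the same chromosome, and Miat lies at chr5:112213228-112229395 on the minus strand. No other gene of the table overlapped the exons of these 3. Frmd8, within 5 kb of Neat1, differed by 0.11 and did not pass. Of the 50-base stretches of the Malat1 transcript, 1.20% occur in other annotated genes too, 0.448% of those of Snhg1 and 0.222% of those of Neat1, and 0 of the other members.

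Of 24 snoRNAs listed for the host genes, 6 had a row of that name in the table and were tested, and the others were not analysed here. None of the 6 passed the line test in limma, edgeR or DESeq2, with or without the block, and 0 had an unadjusted p under 0.05. Snord47, whose sequence is given above, was at 28.7, 14.8 and 14.8 in R1 and 21.9, 23.4 and 14.1 in HN. Its log2 fold change was 0.06 against 0.45 for its host. Annotated exons of Gas5 cover 77 bases of Snord47, its whole length, so reads of the snoRNA and of host RNA cannot be told apart there. Snord22, inside Snhg1, was the most abundant, at 107 ± 53.0 (SD, n = 3) in R1 and 88.7 ± 24.3 in HN, and was the only snoRNA of the 6 to differ by date. The other 5 had at most 36.2 normalized counts in any library.

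Related genes were read in 10 lists, with 120 genes tested. With the block, 12 rose, 3 fell, and so 12.5% passed, against 9.48% of all tested genes. Without it, 0 passed in limma, edgeR or DESeq2, and 6 had an unadjusted p under 0.05 in limma.

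Other snoRNA hosts were examined by coding status. Of 15 noncoding hosts, 0 passed with the block in any of the 3 tools, 1 had an unadjusted p under 0.05 in limma and the median log2 fold change was 0.08. Snhg5, the highest of them, was at 312 ± 68.4 (SD, n = 3) in R1 and 332 ± 42.1 in HN. Where 5.46% of all tested genes rose with the block, 4 of 14 protein-coding hosts did. They were the chaperone Hspa8 (log2 fold change 0.51), the translation factor Eef2 (0.39), the ribosomal protein Rpl3 (0.39) and Tpt1 (0.41), and Hspa8 was also free of overlap, with 5257 to 6013 normalized counts in R1 and 7797 to 8383 in HN. Gas5 was the only noncoding host, among 4 members and 15 others, to pass with the block, where 9.48% of all tested genes passed. All the other noncoding hosts had lower counts than Gas5. Whether a difference of its size could be detected in them was not tested. Of 8 core proteins of the snoRNA particles, such as Nop56 (0.19) and Nop58 (-0.04), 0 passed in any of the 3 tools, with 2 at an unadjusted p under 0.05 in limma. Of 14 nonsense-mediated decay factors, Smg1, the kinase that acts on Upf1, rose (0.33, limma adjusted p = 0.0143 with the block).

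Protein partners of the nuclear RNAs were tested in the same way. With the block, 5.46% of all tested genes were called higher and 4.02% lower, and these short lists were not tested as sets. Of 14 nuclear speckle proteins, 3 rose with the block and 0 fell. Srrm2, a large scaffold of speckles, was at 605, 888 and 465 in R1 and 906, 1386 and 806 in HN (log2 fold change 0.67; limma, adjusted p = 2.45e-06 with the block), higher in HN on each date with overlap between the lines. The splicing factors Srsf2 (0.41) and Prpf8 (0.31) were the others. Of 16 paraspeckle proteins, Pspc1 (0.75) and Ewsr1 (0.40) rose, while the abundant Hnrnpk (-0.19) and Nono (0.11) did not pass. Of 13 proteins that act on the Malat1 3′ end or bind Miat repeats, Rpp25, a subunit of RNase P and RNase MRP, rose (0.80; limma, adjusted p = 2.52e-05 with the block). Of 14 other long noncoding RNAs, Dleu2 rose, at 21.3, 30.3 and 21.6 in R1 and 65.7, 44.7 and 29.2 in HN, and the list's median was 0.21. Dleu2 did not pass in DESeq2 with the block (adjusted p = 0.357).

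RNAs without a poly(A) tail were examined because Malat1 lacks one too. How well the library preparation captured RNAs without a tail was not tested, so their counts need not follow their levels. Where 4.02% of all tested genes fell and 5.46% rose with the block, 3 of 9 small non-polyadenylated RNAs fell and 0 rose. They were Terc, the telomerase RNA (log2 fold change -0.61), the guide RNA Scarna6 (-0.58) and Rmrp, the RNA of RNase MRP (-0.27). Of these, only Rmrp passed in DESeq2 with the block (adjusted p = 0.0402; 0.0962 for Terc and 0.203 for Scarna6). The summed normalized counts of all 10 listed small RNAs with a row, 9 of them tested, were 18894, 11142 and 14581 in R1. In HN the sums were 15997, 10545 and 11981, a different order of the libraries from that of Malat1. Some cell type markers also differed with the line. With the block, 2 of 3 tested mesoderm markers rose, Eomes (0.96) and T (1.21). Of 8 pluripotency genes, Klf4, Esrrb, Nanog and Dppa5a rose and Zfp42 (-0.79) fell. Tubb3 (-0.76) fell, the only marker to pass of 5 neural ones, whose values ran up to 0.53. Thy1 (-1.54) fell, the only marker to pass of 4 tested fibroblast ones, whose values ran up to 0.11. Of 5 primitive endoderm and 3 tested trophoblast markers, 0 passed. In DESeq2 with the block, T, Dppa5a and Thy1 did not pass (adjusted p = 0.0992, 0.0544 and 0.0651). Their part in the values of Malat1 and Gas5 was not tested. Other genes among the highest of their lists did not pass, with log2 fold changes of 0.12 for 9430008C03Rik, 0.09 for Npm1, 0.37 for 6720401G13Rik, 0.31 for Pvt1, -0.11 for Sf3b1, -0.06 for Srsf1, 0.20 for Qk, -0.41 for Snora44 and -0.15 for Rpph1.

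**Figure D5:**
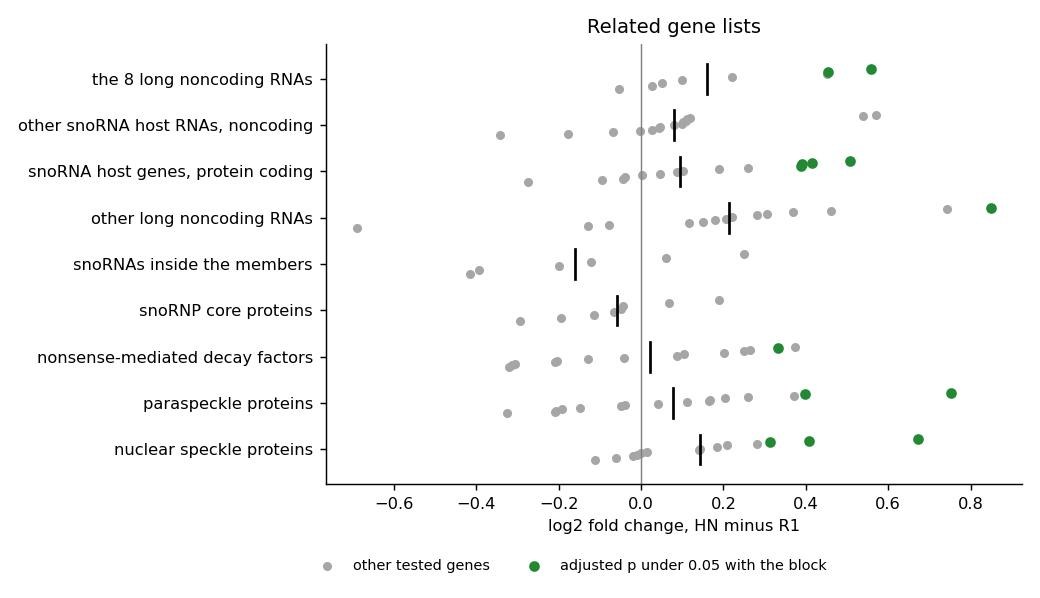
Log2 fold change of HN over R1 (x axis) for each tested gene of the 8 long noncoding RNAs and of related lists (y axis), with a black bar at the median of each list. Green points passed with the collection date as a block (limma, adjusted p under 0.05), as did 9.48% of all tested genes. Among them are 2 of the 8 RNAs and 0 of the other noncoding hosts. Grey points did not pass.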

How the data were processed

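Total RNA of R1 and HN mESCs was made into TruSeq RNA v2 libraries and sequenced from both ends. The authors used STAR for alignment to mm10/GRCm38, Picard against PCR duplicates and HTSeq for counts on exons, which were divided by DESeq2 size factors. The deposited values are these normalized counts, a signal per gene, and tool versions and the annotation are not given in the sources used here. All values were whole multiples of 1 read (tolerance 0.01), so reads were recovered for depth and for the count-based tests. Unused columns of per-sample values numbered 0, and 27 lines carried a date in place of a gene name.

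Values were compared as log2(normalized count + 1) with limma 3.58.1 in R 4.3.3, with a variance trend, for 14276 genes with a mean of at least 5. P-values were adjusted by Benjamini-Hochberg over all of them. Fold changes on this scale understate the change of low genes. The line comparison had no block, and the date was tested in the same model with line as a factor. The dates in the labels pair the libraries, and deviations from the line means correlated at 0.25 to 0.77 for libraries of the same date and at -0.71 to 0.34 for those of different dates, of which R1 replicate 1 with HN replicate 2 (0.34) exceeded R1 replicate 1 with HN replicate 1 (0.25). edgeR 4.0.16 (quasi-likelihood) and DESeq2 1.42.0 were run on the recovered reads, with further alternatives for pseudocount, filter, scaling and left-out libraries. Permutation tests used SciPy 1.17.1 in Python 3.11.15. The fit was tested on simulated data.

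Some items under this study's naming rule are not reported here. The members and gene lists were chosen with earlier results of these data known. Named are all members, each list gene that passed with or without the block and the 2 with the highest mean of each list, annotated neighbours within 5 kb, the 2 genes most alike to each member and Htt; Slc3a2, Trnau1ap and other neighbours count under this rule, and cell type markers were named where they passed. Libraries of a line came from separate dates, so the spread behind the p-values is that between these batches of a single line. For each gene, limma, edgeR and DESeq2 estimate that spread partly from the other genes, and not from its own libraries alone. The line test with the block was not run without the variance trend. Intervals on reads cover counting error only, since reads without molecular identifiers are not independent molecules.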

Additional observations from a re-analysis of the deposited data

How the results depend on the processing

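No alternative called any of the 8 RNAs without a date block. With the replicate block, 2 of the 8 passed, as in edgeR with the block (2), DESeq2 with the block (2) and library-size scaling with the block (2, a scaling chosen after seeing the data), and 1 to 2 when a date was left out, Gas5 being lost without replicate 2. Genes called between the lines numbered 35 without and 1354 with the replicate block (1605 in edgeR, 461 in DESeq2 and 1504 with library-size scaling, all blocked), 92 in DESeq2 without the block and 0 without a variance trend. Leaving out libraries gave 8 to 55 without the block and, for each date in turn, 1127, 494 and 1683 with it. With a log2 fold change above 1 these counts were 35 and 278 (284, 124 and 264 blocked; 76 in DESeq2; 0 without trend), with 8 to 55 and, by date, 281, 181 and 386 for left-out libraries. List genes called were 0 and 15 (18 in edgeR, 12 in DESeq2 and 20 with library-size scaling, all blocked; 6 to 21 for left-out dates). The replicate block changed no other call of a member. The Htt call was lost without R1 replicate 1 (limma, adjusted p = 0.122) and without a variance trend (0.325).

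By date, 6569 genes passed, but 2297 in DESeq2, 4203 after quantile normalization, 4090 with a mean of at least 50, 0 without trend and 3292 to 7545 with a library left out. Members passing went from 7 to 3 in DESeq2, 2 after quantile normalization, 0 without trend and 5 to 8 with a library left out. The cause was not tested, except that fewer genes were tested with the higher mean.

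Log2 fold changes of Malat1, Gas5 and Tug1 kept their sign in all 24 settings, at 0.37 to 0.68, 0.35 to 0.60 and 0.06 to 0.40. Signs turned, none with a passed test, for Neat1 (-0.31 without R1 replicate 3, -0.22 without HN replicate 1), for Snhg1 (-0.0059 under quantile normalization, -0.0065 under library-size scaling with or without the block, -0.19 without R1 replicate 3, -0.04 and -0.09 without HN replicates 1 and 2, and, blocked, -0.056 and -0.014 without replicates 2 and 3), for Snhg3 (0.05 and 0.10 without R1 replicates 1 and 2, 0.10 without HN replicate 3 and, blocked, 0.075 without replicate 1), for Snhg12 (-0.10 without R1 replicate 3 or HN replicate 2 and, blocked, -0.041 without replicate 2) and for Miat (-0.059 without R1 replicate 1). With single libraries left out, the values ran up to 0.45 for Neat1, 0.21 for Snhg1, 0.18 for Snhg12 and 0.81 for Miat, and down to -0.31 for Snhg3. Depth limits Neat1 and Miat most, the latter with 5 to 22 reads per library.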
